A study of Homo sapiens with 3 samples.

Results

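Many protein-coding genes can begin transcription at more than 1 place, and the occupancy of YTHDC1 on chromatin at such alternative starts is described here. YTHDC1 is a nuclear reader of m6A, the methylated adenosine of RNA. It was mapped by ChIP-seq in unperturbed, wild-type A549 cells, a human cell line from a lung adenocarcinoma, with 3 samples that form 1 group. Their reads were combined before peaks were called, so each peak carries 1 value, with no spread between replicates, no condition to compare and an unknown depth. Of the 6368 peaks, 346 (5.43%) were taken as peaks at alternative starts. Their midpoint lay over 1000 bases from the canonical start of every protein-coding gene, and at least 1 base of the peak fell within 200 bases of another annotated transcript start of such a gene. The canonical start is that of the transcript GENCODE chooses to represent the gene. The rule used positions and no measured value beyond the call of the peak itself. With a limit of 2000 bases in place of 1000, 251 peaks remained, so the others of the 346 lay 1000 to 2000 bases from a canonical start.

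An alternative promoter gives a gene a different first exon. The resulting transcript may keep the protein, shorten or extend its N terminus, or encode no complete protein at all. Promoters of broadly expressed genes usually lie in CpG islands, stretches of high GC in which CpG dinucleotides are kept, whereas tissue-restricted and internal promoters often do not. YTHDC1 is best known for its action on nuclear RNA, in splicing, export and decay, and ChIP-seq records its closeness to DNA, however it is held there. A peak near an annotated start therefore places YTHDC1 near that start, and does not show that the start is used in these cells, for which no RNA value was analysed here.

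The sequences of 9 starts are printed from 100 bases before to 50 bases after the start, along the strand of the transcript, so that the promoter types can be seen. They were taken from the 6 peaks with the highest caller value among those whose nearest transcript is annotated as coding, apart from 1 chromosome not printed here, and from the first such peak of each gene list described later. Capitals mark 7 short promoter motifs on either strand: TATAAA, the TATA box, then CCAAT, the site of NF-Y, then GGGCGG, the GC box that SP1 binds, then TGACGTCA, the cyclic AMP response element or CRE, then TGACTCA, with its variant TGAGTCA, the AP-1 site, then CACGTG, the E-box, and CCGGAAGT, the site of ETS factors. A start with no capitals had none of them in this window. Capitals mark a match of letters and do not show that a factor binds there or that the stretch is a promoter. Coordinates are on hg19.
ATOSB, chr9:35111535-35111685, minus strand: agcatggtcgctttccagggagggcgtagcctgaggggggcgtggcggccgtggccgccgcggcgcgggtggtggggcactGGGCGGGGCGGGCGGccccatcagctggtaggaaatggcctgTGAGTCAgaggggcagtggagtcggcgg
WDR74 (outer start), chr11:62609231-62609381, minus strand: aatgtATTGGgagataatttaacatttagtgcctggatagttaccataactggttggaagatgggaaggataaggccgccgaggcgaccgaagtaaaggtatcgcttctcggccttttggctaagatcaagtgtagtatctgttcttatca
ANKRD24, chr19:4198037-4198187, plus strand: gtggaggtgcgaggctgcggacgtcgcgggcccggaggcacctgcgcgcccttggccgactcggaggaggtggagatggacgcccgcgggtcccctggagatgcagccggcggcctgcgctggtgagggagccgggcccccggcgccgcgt
MAP2K3, chr17:21191258-21191408, plus strand: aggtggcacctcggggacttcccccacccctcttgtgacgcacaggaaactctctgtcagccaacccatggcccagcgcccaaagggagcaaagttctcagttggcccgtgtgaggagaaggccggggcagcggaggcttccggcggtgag
TRIM41, chr5:180649399-180649549, plus strand: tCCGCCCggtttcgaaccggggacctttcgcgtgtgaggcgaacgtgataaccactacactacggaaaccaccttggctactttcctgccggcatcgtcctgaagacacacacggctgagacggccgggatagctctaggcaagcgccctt
SQSTM1, chr5:179249385-179249535, plus strand: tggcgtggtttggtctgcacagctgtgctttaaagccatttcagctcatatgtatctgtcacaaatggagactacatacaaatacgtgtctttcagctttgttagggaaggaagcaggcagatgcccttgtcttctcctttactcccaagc
AFF1, chr4:87928295-87928445, plus strand: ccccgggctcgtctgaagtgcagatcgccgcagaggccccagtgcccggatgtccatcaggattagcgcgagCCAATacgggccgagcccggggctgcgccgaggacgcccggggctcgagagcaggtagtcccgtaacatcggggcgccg
KRT8, chr12:53297382-53297532, minus strand: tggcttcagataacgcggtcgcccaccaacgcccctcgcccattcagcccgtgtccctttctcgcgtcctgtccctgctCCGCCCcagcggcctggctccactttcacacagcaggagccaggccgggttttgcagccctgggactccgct
TPM1, chr15:63340925-63341075, plus strand: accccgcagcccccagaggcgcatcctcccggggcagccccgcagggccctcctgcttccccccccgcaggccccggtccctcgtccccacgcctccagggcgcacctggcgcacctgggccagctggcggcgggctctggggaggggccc

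The ATOSB start carried 3 overlapping GC boxes from 19 bases before the start and an AP-1 site 23 bases after it. All 4 motifs lay outside the ATOSB peak, which held 42 of the 151 printed bases. ANKRD24 and TPM1 had windows of 78.1% and 80.8% GC with 21 and 12 CpG dinucleotides and none of the 7 motifs. SQSTM1 was the opposite case, with 45.7% GC and 2 CpG dinucleotides. The peaks did not always sit over the start. All 151 printed bases lay inside the peak at MAP2K3, SQSTM1, KRT8 and TPM1, whereas none did at TRIM41, whose peak ended upstream of the window. At ANKRD24 53 of the printed bases lay inside the peak, so the GC of its window is not that of the peak.

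The 346 peaks belonged to 328 genes by their nearest start and lay on all 24 chromosomes. One such peak was found in 313 genes, 2 in 12 genes and 3 in 3 genes. Chromosome 19 held 48 of the 346 (13.9%), against 7.32% of all peaks and 7.57% of the 2242 peaks at canonical starts, a difference that was not tested. The peaks were split almost evenly about the nearest alternative start, with 177 midpoints downstream and 169 upstream of it, a median of 4.75 bases downstream and 220 midpoints (63.6%) within 200 bases. The rule itself favours such values. Its window reaches 200 bases to both sides of a start, and the start nearest to the midpoint was taken.

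The caller value of a peak is read as −log10 of its q-value, so that higher means a stronger call. Its median over the 346 peaks was 1.42 (95% interval 1.34 to 1.54), the same as the 1.42 of peaks at canonical starts and near the 1.39 of the 257 peaks at starts of long non-coding RNA (lncRNA) genes away from canonical starts. The 796 peaks in introns away from all annotated starts had a median of 1.2. A q-value under 0.05 was reached by 198 of the 346 (57.2%, 95% interval 52 to 62.3), against 52.1% of all peaks, 57.2% at canonical starts, 53.7% at lncRNA starts and 42.7% in introns. The median width was 346.5 bases (quartiles 263.2 and 516.8, range 226 to 2965), near the 348 of all peaks and between the 385.5 of canonical starts and the 317.5 of introns. Peaks at least 800 bases wide made up 9.54% at alternative starts, 10.1% at lncRNA starts, 6.02% at canonical starts and 5.03% of all peaks. The rule for alternative starts favours wide peaks, since 1 base within a window is enough. It also admits wide peaks that reach a canonical start but have their midpoint far from it, as at CYP24A1, ALDH1A1 and H2AC6. Where the midpoint had to fall inside the window, the median width was 332 bases. How far the rule accounts for the share of 9.54% was not tested.

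The DNA under these peaks was rich in GC and CpG, somewhat less so than at canonical starts. The median GC was 64.2%, against 67.2% at canonical starts, 62.3% at lncRNA starts and 48.3% in introns. The ratio of observed to expected CpG had medians of 0.701, 0.819, 0.694 and 0.277 in the same order. By their medians, the peaks at alternative starts lay nearer to those at canonical and lncRNA starts than to intronic peaks in caller value, GC and CpG. These differences between sets of peaks were not tested, since the peaks come from 1 pooled experiment.

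**Figure D1:**
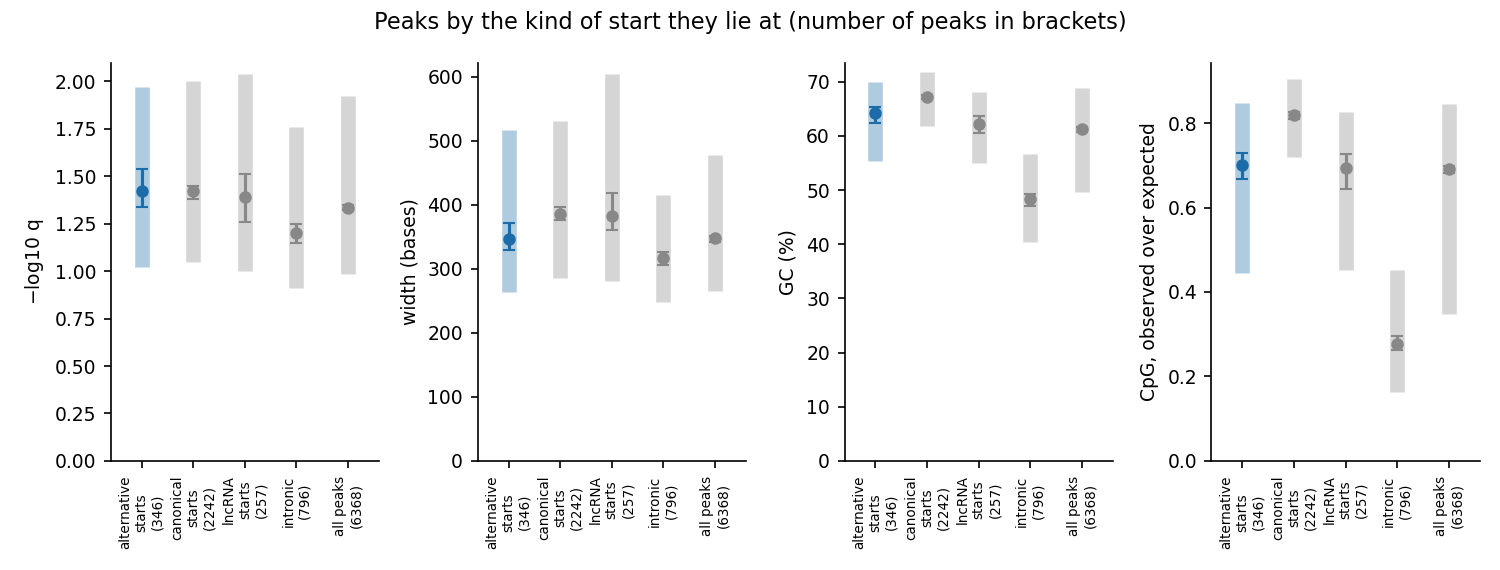
Median (point, with its 95% interval) and quartiles (band) of the caller value, width, GC and CpG ratio of the peaks, by the kind of start they lie at, with the number of peaks in brackets. The peaks at alternative starts (blue) have a median caller value of 1.42, as at canonical starts, and a median GC of 64.2%, against 48.3% for intronic peaks and 61.2% for all peaks.

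Of the 346 peaks, 239 (69.1%, 95% interval 64 to 73.7) lay downstream of the canonical start of their gene, with a median distance of 9052 bases, and 107 upstream, with a median offset of -9951 bases. Of all 62935 alternative starts over 1000 bases from canonical starts, 89.9% lay downstream, and the difference was not tested. The starts of the 346 did not all lie over 1000 bases away, so the sets are not quite alike. Within the canonical transcript, 182 lay in introns, 78 of them in intron 1, 37 in coding exons, 11 in the 5' UTR, 7 in the 3' UTR and 2 beyond its end. The place given for a peak, here and for single genes, is that of its nearest alternative start, and the peak can extend past it or lie beside it. The median caller value was 1.39 (95% interval 1.29 to 1.56) downstream and 1.43 (1.32 to 1.67) upstream, so the intervals overlapped. Upstream peaks had the higher CpG ratio, 0.772 against 0.66.

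**Figure D2:**
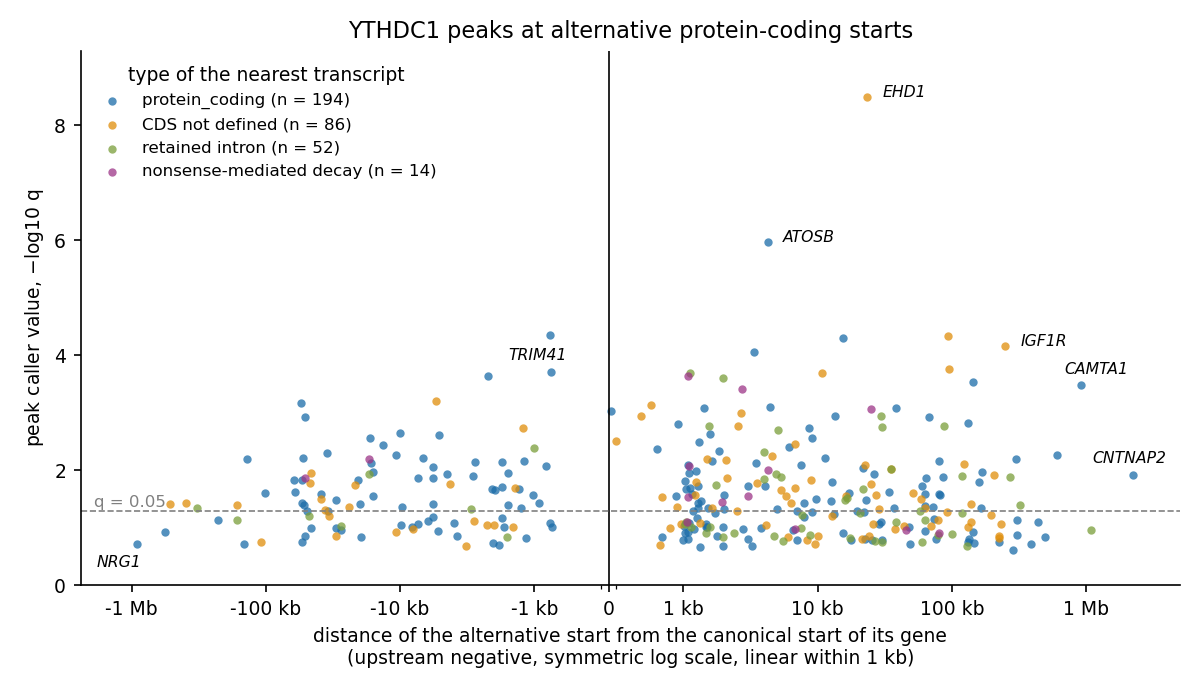
Caller value (−log10 q) of each of the 346 peaks against the distance of its nearest alternative start from the canonical start of the gene, on a symmetric log scale, coloured by the type of transcript. Peaks downstream of the canonical start (239) outnumber those upstream (107), and EHD1 (8.49) and ATOSB (5.98) stand above all others.

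The strength of the annotation varied. The nearest transcript was annotated as coding for 194 peaks, as a transcript of a coding gene without a defined coding sequence for 86, as retaining an intron for 52 and as a target of nonsense-mediated decay for 14. At least 1 transcript with a found 5' end was in reach of 329 peaks (95.1%), and 169 (48.8%) had one that also bore GENCODE's best support level or its basic tag. For 17 peaks every transcript in reach was tagged as incomplete at its start, so these places mark the end of the evidence and not a known start. Of the 17, 7 had a q-value under 0.05. Peaks whose nearest transcript retained an intron had a median caller value of 1.24 (1.04 to 1.52) and coding ones 1.44 (1.34 to 1.59).

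For 174 peaks the coding sequence of the nearest transcript could be set against the canonical one. The start codon was further downstream in 85, the same in 64 and upstream in 25. Among the 85, the alternative coding sequence had a median of 187 codons and the canonical one 681. Incomplete models of transcripts were not set apart in this count. PDE4D, a cyclic AMP phosphodiesterase with a well-known set of promoters, had a long alternative of 673 codons against 809. ADAMTSL1 had an alternative of 1810 codons against 1762 for its canonical transcript, from a start 567590 bases upstream.

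The strongest peak was in EHD1, which encodes an ATPase of endocytic recycling. It had a caller value of 8.49 and lay in intron 4 (chr11:64622430-64622776), with its midpoint 36 bases upstream of the start of a transcript without a defined coding sequence. That start lies 23526 bases downstream of the canonical start. ATOSB followed with 5.98 in intron 1 (chr9:35111644-35112046). MAP2K3, a kinase that activates p38, had a value of 4.06 in intron 1, 3335 bases inside the gene, where a coding transcript of 318 codons begins in place of the canonical 347. ANKRD24 had 4.3 in intron 2, in a peak of 43.9% GC whose CpG ratio of 1.36 was among the highest of the 346.

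MSL1, the scaffold of a histone acetyltransferase complex, had 3.7 at a start in coding exon 1. CIC, a transcriptional repressor downstream of receptor tyrosine kinases, had 3.69 in intron 2, 10740 bases inside the gene. RGS20, a regulator of G protein signalling, had 4.33 in intron 3. TRIM41, a ubiquitin ligase, had 3.72 at a start 782 bases upstream and 1.08 at its canonical start. The peak of 3.72 ended before that upstream start, with its midpoint 309.5 bases from it. Only position links this peak to TRIM41.

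METTL16 is the only gene of the m6A writers, readers and erasers among the 328, and it encodes the methyltransferase that modifies U6 snRNA and the MAT2A mRNA. Its peak, at 3.77, was at starts in the 3' UTR in exon 10 of 10, where 2 short transcripts without a defined coding sequence begin. Its canonical start had a peak of 0.829.

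WDR74, which encodes a factor of ribosome assembly, had peaks at 2 alternative starts upstream, with values of 4.35 (chr11:62607930-62608550) and 3.64 (chr11:62608788-62609323). The outer WDR74 start in the annotation is the same base as the start of RNU2-2P, a U2 snRNA gene, and the second peak covered all 191 bases of RNU2-2P, so the peak cannot be assigned to WDR74 rather than to the snRNA gene. The sequence printed for that start runs into RNU2-2P from its start onward. Of the 31-base words in the peaks, 22.2% and 17.2% occurred more than once in the genome, the highest shares among the 346 after AKR1C1. CLASP1, a microtubule regulator, had a similar case, a peak of 1.91 in intron 2 that covered all 127 bases of RNU4ATAC, the U4 snRNA of the minor spliceosome. Altogether 44 of the 346 peaks also reached the start of another kind, among them 35 lncRNA, 3 miRNA and 2 snRNA starts. Those 44 had a median caller value of 1.8 (1.56 to 1.98), against 1.36 (1.29 to 1.47) for the other 302. They were also wider, with a median of 430 bases against 337.5, and 3 of them reached a canonical protein-coding start. The part of width in the caller value was not tested.

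The 5 widest peaks had q-values under 0.05. At ID3, an inhibitor of basic helix-loop-helix factors, the peak spanned 2965 bases with a value of 2.94. At CYP24A1, the vitamin D hydroxylase, it spanned 2286 bases with 3.14, and at ALDH1A1, an aldehyde dehydrogenase, 2022 bases with 2.51. ARHGDIA had 2045 bases. The peak of 1833 bases was given to HOOK2 by its nearest start, that of 1 transcript which retains an intron. That start lies 17030 bases upstream of the canonical start of HOOK2. The nearest canonical start of any gene was 1661 bases from the midpoint of the peak, so position does not tie this peak to HOOK2. The peaks of CYP24A1, ALDH1A1 and the histone gene H2AC6 were so wide that they also reached the window of their own canonical start, and were kept because their midpoints lay over 1000 bases away.

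The farthest starts lay in very long genes. CNTNAP2, a neuronal adhesion gene, had a peak of 1.92 at a start 2222660 bases downstream, in intron 21. AUTS2 had 0.955 at 1096398 bases and CAMTA1 3.48 at 919433 bases, in intron 11, where a transcript of 577 codons begins against 1673 for the canonical one. Upstream, the peaks at NRG1 (0.714), ADAMTSL1 (0.927) and KIAA1217 (1.41) lay at annotated 5' ends 907654, 567590 and 514356 bases before the canonical start. Every transcript in reach at NRG1 was tagged as incomplete at its start, so that end is not a known start. CNTNAP2, CAMTA1 and KIAA1217 had a q-value under 0.05.

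Genes with several such peaks show how the values spread within a gene. IGF1R, the receptor of insulin-like growth factor 1, had 4.17 in intron 4, 0.823 in intron 2 and 1.1 at a start in coding exon 1, and no peak at its canonical start. The peak at the intron 4 start was 41.5% GC and that at the exon 1 start 71.9%. ABR had 1.87 in intron 2, 1.29 and 1.06 at starts upstream, and 0.715 at the canonical start, the lowest of its peaks. MYADM had the reverse order, with 2.57 at the canonical start and 1.71, 1.35 and 1.17 at alternative starts within 1730 bases of it. TGFBI, a secreted matrix protein, had 3.06 at a place in coding exon 9 and 2.94 in intron 12. The exon 9 place rests on a transcript whose start was tagged as not found.

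**Figure D3:**
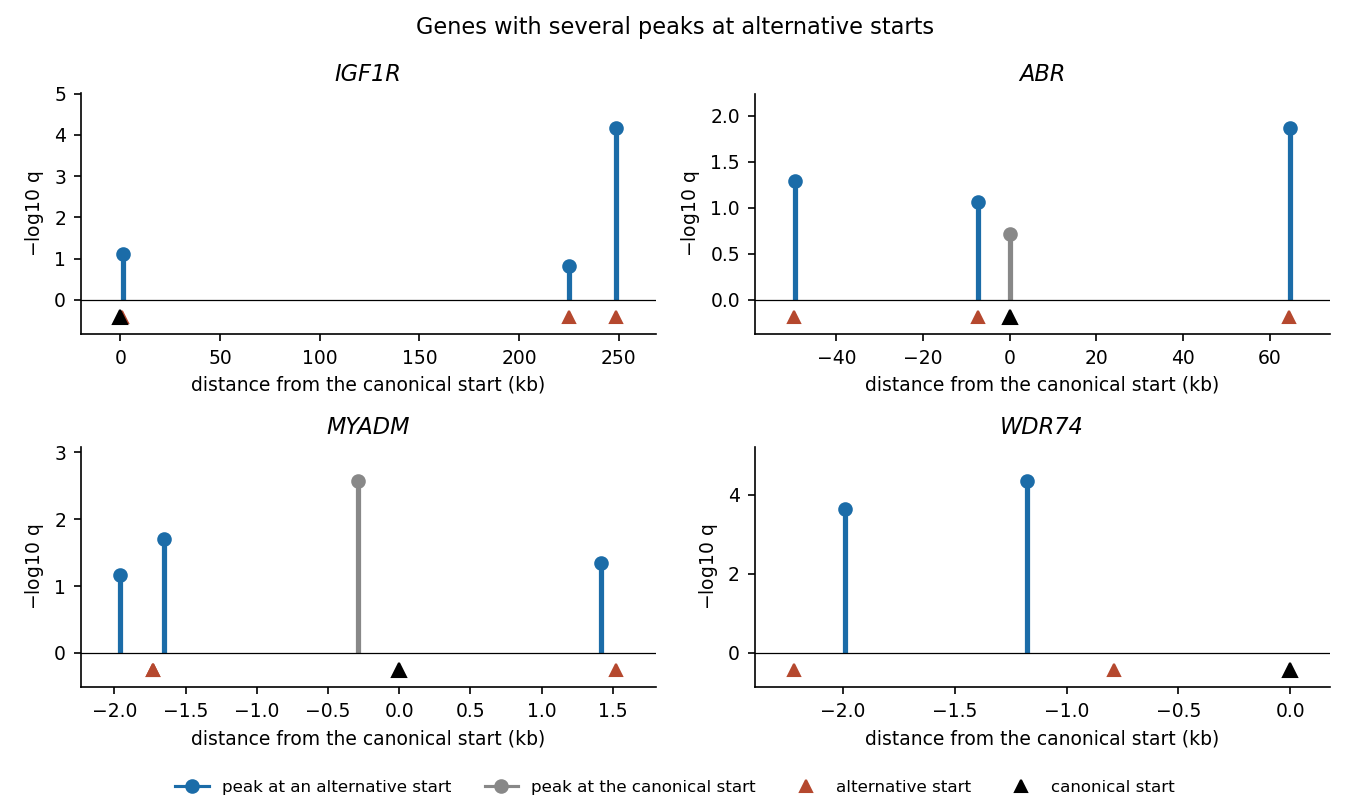
Caller value (−log10 q, vertical) of the peaks of 4 genes against the distance of the peak midpoint from the canonical start in kb, positive downstream, with triangles at the nearest alternative starts and at the canonical start. In ABR the canonical peak (0.715) is the lowest, in MYADM it is the highest (2.57), and IGF1R and WDR74 have none.

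Some genes had peaks at both an alternative and the canonical start. The canonical start of the same gene had its own peak for 41 of the 346 (11.8%, 95% interval 8.86 to 15.7), in 36 genes, and 11.7% of all 20163 canonical starts had one. The share of 11.8% rested on the rule, since it was 18.9% with windows of 500 bases and 7.27% where the midpoint of a peak had to fall inside the window. The 11.7% was not recomputed with those rules. It counts starts and not peaks, and includes genes without an alternative start far from canonical starts. Among the 13505 genes with such a start, 1785 had a peak at the canonical one. Whether these shares differ was not tested. Where peaks at both starts were present, the alternative peak had the higher value in 19 of 41. The medians were 1.44 at the alternative and 1.42 at the canonical start. CRYM, which encodes a thyroid hormone-binding protein, had 3.21 at the alternative and 0.773 at the canonical start. PALM2AKAP2 had 2.2 and 6.12, SLC38A2, an amino acid transporter, 1.08 and 5.81, and COQ8B, of coenzyme Q synthesis, 3.64 and 7.79. ANXA2, an annexin abundant in epithelial cells, had 2.37 and 1.16.

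Seen from the annotation, peaks at alternative starts were rare. There were 62935 distinct alternative starts over 1000 bases from canonical starts, in 13505 genes, and a peak was in reach of 707 (1.12%) of them and of 349 (2.58%) of the genes. These counts include starts reached by peaks whose own midpoint is nearer to a canonical start. Among the genes with a peak at the canonical start the share was 2.41% (1.79 to 3.23), and among those without 2.61% (2.34 to 2.92). The share grew with the number of alternative starts, from 1.02% of genes with 1 or 2 to 5.5% of genes with 6 or more.

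The share followed the base composition around the start. Of the alternative starts with under 45% GC in the surrounding 501 bases, 0.152% had a peak, and of those with 65% or more, 6.27% (5.64 to 6.97). Canonical starts went from 0.639% to 15.7% over the same bins. CpG-rich starts, with a CpG ratio of 0.6 or more and 50% GC or more, had a peak in 9.42% (8.65 to 10.2) of alternative and 16.7% (16.1 to 17.3) of canonical starts. CpG-poor starts had one in 0.384% and 1.73%. Most alternative starts were CpG-poor, 57787 of 62935, and the ratio of 11.7% to 1.12% over all starts was larger than the ratio within either class. Of the start windows of the 346 peaks, 217 (62.7%) were CpG-rich, against 7.49% of alternative starts without a peak and 95.1% of canonical starts with one. These sets are not quite alike. The starts without a peak all lay over 1000 bases from canonical starts. For the 346 only the peak midpoint had to, and the start lay 91 bases from the canonical one at ALDH1A1 and 426 at ID3.

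**Figure D4:**
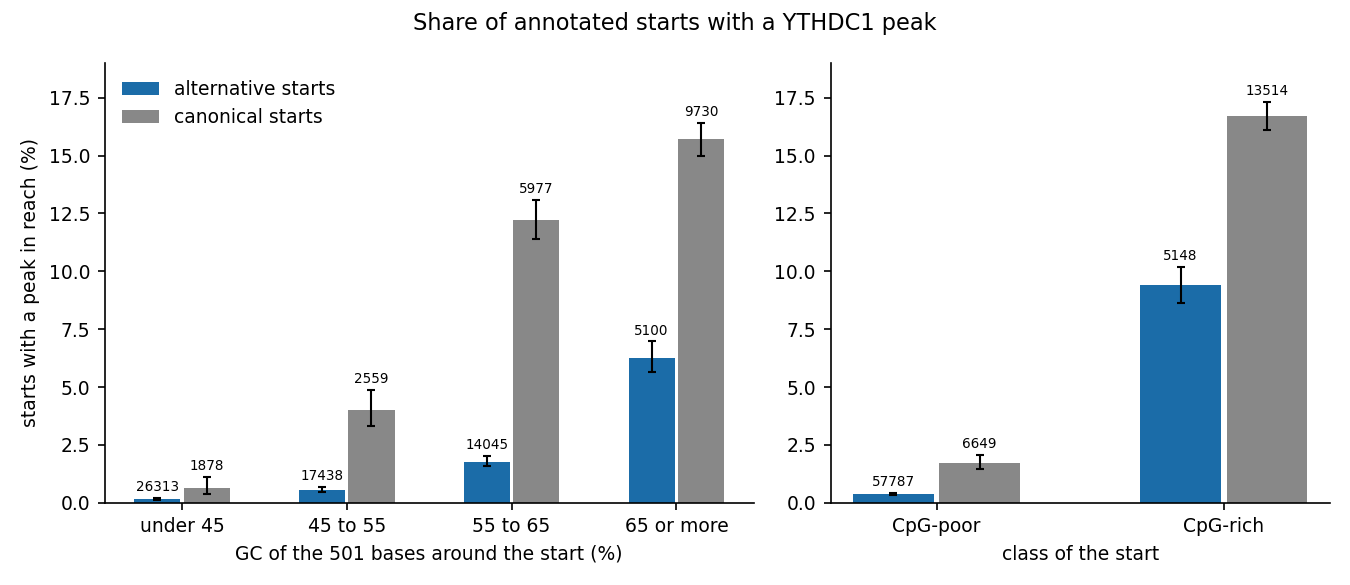
Share of annotated starts with a YTHDC1 peak in reach (%, bars with 95% intervals and the number of starts above), for alternative and canonical starts, by GC of the surrounding 501 bases and by CpG class. In both kinds the share grows with GC, to 6.27% of alternative and 15.7% of canonical starts at 65% GC or more.

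The share also varied with the kind of start. Starts upstream of the canonical start had a peak in 4% (3.55 to 4.52), intronic ones in 1.06% (0.961 to 1.18) and those in coding exons in 0.272% (0.208 to 0.355). Among CpG-rich starts the same classes gave 10.9%, 9.63% and 4.45%, with overlapping intervals for the first pair. Starts of coding transcripts had a peak in 1.94%, and those of transcripts with a retained intron in 0.475%. Starts tagged as not found had one in 0.386%, against 1.26% of the others.

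The 7 motifs were counted in the 151 bases printed for the examples. GC boxes were present at 39% (34 to 44.3) of the 346 starts, at 9.12% of alternative starts without a peak and at 49.2% of canonical starts. Among CpG-rich starts these shares were 51.6%, 49.6% and 65.7%, so the members and the starts without a peak had overlapping intervals there. TATA boxes were found at 4.05%, 8.82% and 6.18%, and CCAAT boxes at 11.3%, 18.1% and 22.8%. The CRE was found at 1.45%, 0.223% and 1.98%, the E-box at 5.2%, 2.48% and 5.16%, and the ETS site at 2.31%, 0.265% and 4.93%. Among CpG-rich starts the TATA box was at 3.69%, 1.84% and 2.54% and the E-box at 4.15%, 5.04% and 6.23%, so for both the order of members and starts without a peak was turned. GGACT, the most frequent form of the m6A consensus, was on the sense strand of the first 300 bases of DNA after the start at 26% (21.7 to 30.9) of the starts with a peak, 24.5% (24.2 to 24.8) of alternative starts without one and 28.9% of canonical starts. A match of letters is not a bound site, and no difference was tested.

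AP-1 is a family of dimers of FOS and JUN proteins that often occupies enhancers of epithelial cells. Its site was at 26 of the 346 starts (7.51%, 5.18 to 10.8), against 2.72% of alternative starts without a peak and 1.82% of canonical starts. In the CpG-poor class it was at 20 of 129 (15.5%, 10.3 to 22.7), against 2.82% and 3.73%. It was then counted in the 301 bases around the midpoint of each peak, to compare kinds of peak, a step added after the start windows had been counted. Of the 145 CpG-poor windows at alternative starts 29 held a site (20%, 14.3 to 27.2), close to the 18.2% (15.5 to 21.2) of intronic and 20.6% (13.9 to 29.4) of lncRNA-start windows, and above the 4.45% (2.5 to 7.8) of canonical-start windows. In CpG-rich windows the share was 3.48% at alternative and 1.7% at canonical starts. Over the CpG-poor windows of all peaks it was 15.7% (14.4 to 17), an interval that overlaps that of alternative starts.

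**Figure D5:**
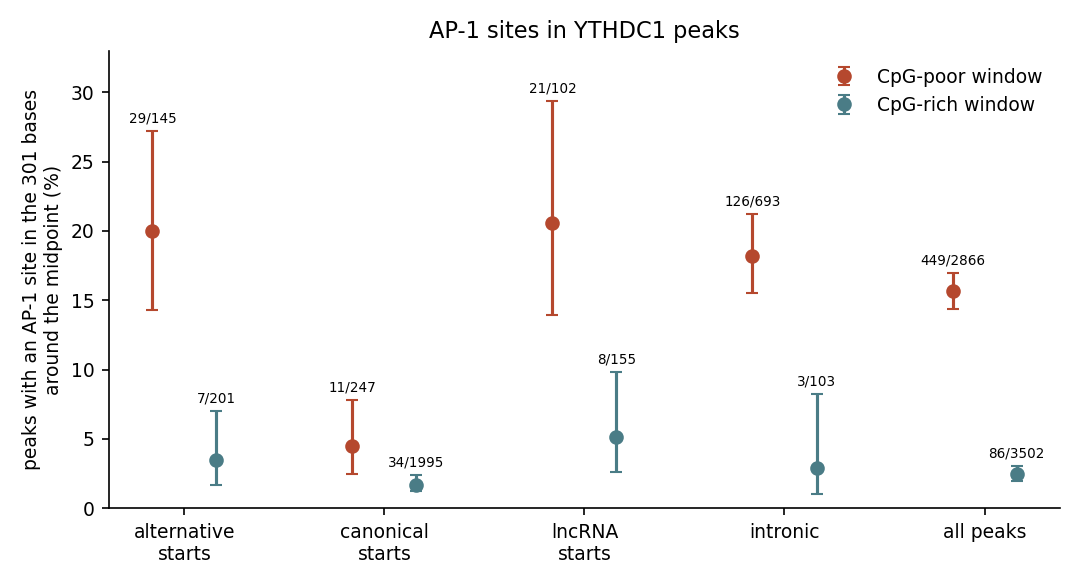
Share of peaks with an AP-1 site in the 301 bases around the midpoint (%, with 95% intervals and counts), by kind of peak and CpG class of the window. CpG-poor windows at alternative starts (20%) lie near intronic (18.2%) and lncRNA-start windows (20.6%), and canonical-start windows at 4.45%.

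The 61 bases around the site are printed, on the strand of the transcript, for the 6 CpG-poor peaks with the highest caller value that held one. They show how the site falls relative to the annotated start in these genes. This set was chosen after the values were seen. Capitals mark the AP-1 site.
EHD1, chr11:64622569-64622629, minus strand: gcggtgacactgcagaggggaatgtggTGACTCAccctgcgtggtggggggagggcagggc
IGF1R, chr15:99440432-99440492, plus strand: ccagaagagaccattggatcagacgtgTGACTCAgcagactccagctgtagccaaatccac
MAP2K3, chr17:21191378-21191438, plus strand: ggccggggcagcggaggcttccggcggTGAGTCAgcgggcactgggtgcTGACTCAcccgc
COQ8B, chr19:41221668-41221728, minus strand: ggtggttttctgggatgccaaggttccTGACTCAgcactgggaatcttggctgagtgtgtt
RAB26, chr16:2203021-2203081, plus strand: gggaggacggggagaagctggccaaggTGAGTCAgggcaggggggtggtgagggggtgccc
TGFBI, chr5:135389496-135389556, plus strand: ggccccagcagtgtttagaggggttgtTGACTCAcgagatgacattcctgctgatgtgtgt

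The middle of the site lay 32 bases before the alternative start at EHD1 and 53 before it at IGF1R, 50 after it at MAP2K3, 19 after it at COQ8B and 8 after it at RAB26, a small GTPase of secretory granules. At TGFBI it was 106 bases before. At RAB26 and TGFBI these distances run from the end of an incomplete transcript and not from a known start. MAP2K3 and COQ8B had 2 sites in their windows. The 29 CpG-poor peaks with a site had a median caller value of 1.8 (1.09 to 2.73), and the 116 without one 1.34 (1.19 to 1.59), with overlapping intervals.

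Lists of genes were read against the 2.58% of all genes with an alternative start. The peaks reached 4 of 25 (16%, 6.4 to 34.7) listed targets of NRF2, the oxidative stress factor that is constitutively active in A549 through mutation of KEAP1. They were NFE2L2, which encodes NRF2 itself (2.1, in intron 1, 1077 bases inside), SQSTM1, an autophagy receptor (2.64), AKR1C1, an aldo-keto reductase (2.18), and ABCC3, a drug efflux pump (1.58). ALDH1A1 also had such a peak, at a start within 1000 bases of the canonical one. Most of these peaks lay close to the canonical start of their gene. Their midpoints were 1049 bases downstream of it at NFE2L2, 1078 at SQSTM1, 1091.5 at ALDH1A1 and 1772.5 at AKR1C1. Only the ABCC3 peak, at 27072 bases, was far past the limit of 1000. The share of 16% thus rests largely on peaks near canonical starts. AKR1C1 has close copies in the genome and 24.8% of the 31-base words in its peak were repeated, the highest share of the 346, and how reads were shared among the copies was not tested. Of the 346 peaks 310 had no repeated word, and in none did repeated words reach 50%.

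Genes with well-known alternative promoters were reached in 7 of 65 (10.8%, 5.32 to 20.6). TPM1, a tropomyosin gene, had 2.41 over 12 clustered starts in intron 2, 6079 bases inside the gene. AXL, a receptor tyrosine kinase, had 2.09 at an internal start and 2.04 at the canonical one. ARHGEF2 (1.36), TXNRD1 (1.15), PDE4D (1.14 and 0.869), SEPTIN9 (1.1) and NRG1 (0.714) completed the list. Without starts tagged as not found, NRG1 was no longer reached and the share was 6 of 65 (9.23%, 4.3 to 18.7). All 65 genes of the list have such a start, and the share of genes reached also grew with the number of starts, as given above.

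Of 36 genes for the pausing and elongation of RNA polymerase II, 3 were reached (8.33%, 2.87 to 21.8), namely AFF1 of the super elongation complex (1.36), the polymerase subunit gene POLR2H (1.26) and the kinase gene CDK13 (1.02). The CDK13 place rests on a transcript whose start was tagged as not found, and without such starts 2 of 34 genes were reached (5.88%, 1.63 to 19.1). Of 57 genes of epithelial adhesion and the cytoskeleton 4 were reached (7.02%, 2.76 to 16.7), KRT8 (3.08, a keratin of simple epithelia), ITGB5 (2.73), TUBA1B (1.44) and ITGB1 (1.21). In the p53 pathway and DNA damage response it was 2 of 61 (3.28%, 0.904 to 11.2), BBC3, the pro-apoptotic gene of PUMA (2.32, in a peak of 1587 bases that covers MIR3191), and FANCC (0.761). Among m6A genes it was METTL16 alone of 22 (4.55%, 0.807 to 21.8), and among splicing factors 0 of 65, where the Wilson interval reaches 5.58% and 3 counts would give 4.62%. No list was tested, and each rests on 7 genes or fewer.

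At the limit of 1000 bases, the 3 peaks just inside the rule were at FKBP4 (1001.5 bases from the nearest canonical start, caller value 0.709), SLC38A2 (1006, 1.08) and IL20RA (1008, 1.54). The 3 just outside, among peaks that reached no canonical window, were at ZNF668 (998.5, 1.06), ASPH (998, 1.49) and FADS1 (996.5, 1.13).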

How the data were processed

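YTHDC1 ChIP-seq was made in 3 replicates of wild-type A549 cells. According to the study's methods, the reads were aligned to hg19 with Bowtie2, pooled, and broad peaks were called with MACS2 (q-value 0.1, broad cutoff 0.25). The submitters' processing notes name BWA, deepTools and MACS2, and no control library is named. The deposited file gives for each peak a position and 1 value, taken here as the authors' −log10 q because its lowest value, 0.61, lies just above 0.602, the −log10 of the broad cutoff. Peak names carry a merge number. That step is not described in the sources used here, so widths and values may be those of merged peaks. Whether the replicates were separate cultures is not given in the sources used here.

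Starts came from GENCODE release 44 mapped to GRCh37, with 20163 protein-coding genes. The canonical transcript was the tagged one for 19881 genes and, for 282, the best by MANE, APPRIS and coding length. Starts of 1 gene at the same base were counted once. Shares have 95% Wilson intervals and medians have 95% intervals from binomial ranks. These treat peaks, starts or genes of 1 pooled experiment as units and do not cover variation between experiments. No test was run, because there is 1 group without replicate values. GC, CpG and motifs were read from GRCh37 with pysam 0.24.0, and the share of 31-base words that occur more than once was counted with numba 0.67.0. Python 3.11.15, numpy 2.4.6, pandas 2.3.3, scipy 1.17.1 and matplotlib 3.10.9 were used. The rule was tested on 400 simulated peaks, all placed correctly.

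The peaks, the 7 gene lists and the rules were chosen with earlier results of these data known. Named are the 12 peaks with the highest caller value, the 5 widest, the 3 farthest on each side, up to 5 genes with several peaks, 3 peaks on each side of the limit and up to 4 per list. CRYM, PALM2AKAP2, COQ8B, ANXA2, RAB26, CLASP1 and H2AC6 were added after their values were seen, as were the fifth NRF2 gene, ABCC3, and the further genes with known alternative promoters. Sequences on chromosome 8 are not shown, and 1 of the 10 start sequences chosen by the rule is not reported here.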

Additional observations from a re-analysis of the deposited data

How the results depend on the processing

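Each of 7 results on the peaks at alternative starts was recomputed under 8 alternatives, apart from the share with q under 0.05 among peaks chosen by it, and under 2 more added after the data were seen. Of 69 values 56 lay within the 95% interval of the reported value or, for the number of peaks, within 1.5 times it. The number of peaks was 610 with a distance of over 500 bases from canonical starts, 220 with the midpoint required inside the window, 153 with basic transcripts only and 198 with q under 0.05. With a distance of over 2000 bases it was 251, which is within the limit of 1.5 times. The median width was 373 bases with the 500-base distance and 390 with q under 0.05, where the median caller value, which that choice raises by construction, was 1.88. The share whose gene also had a peak at its canonical start was 18.9% with windows of 500 bases, 7.27% with the midpoint inside the window and 6.57% with q under 0.05, all 3 of which also change what counts as a canonical peak. The share downstream of the canonical start was 63.8% with the 500-base distance, 57.5% with basic transcripts and 61.7% with coding transcripts only. The cause of the last 3 shifts was not tested. Leaving out transcripts with an unfound start moved no result past these limits. Leaving out peaks with 50% or more repeated words removed none of the 346, so its 7 values are the reported ones by construction. No replicate could be left out and no paired analysis was possible because the deposited peaks were called on pooled replicates of 1 group. The depth is unknown and no control library is named, which limits what a weak peak or a start without a peak can show.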
